A study of Mus musculus with 22 samples.

Results

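The genes described here are those of the mouse mitochondrial genome, chosen as every row of the deposited count tables whose gene symbol starts with mt-. The tables held 31 such genes among the 40756 genes listed in any of them: 13 protein-coding genes, 2 ribosomal RNA genes and 16 transfer RNA genes. The 13 protein-coding genes were in every table, while the ribosomal and transfer RNA genes were only in the whole-number table of the cartilage libraries. RNA had been sequenced from 22 mouse samples in 6 groups. The 14 culture samples were primary chondrocytes, the cells that make cartilage, taken from knee joints of pups 3 to 5 days old. The control cultures carried the genotype Dnmt1 flox. The conditional knockout (cKO) cultures carried Prrx1-Cre;Dnmt1 flox/flox, in which the Cre recombinase is driven by the Prrx1 promoter, active in the limb mesenchyme from which limb cartilage forms. At day 0 the cultures were untreated (3 control and 3 cKO samples), and at day 3 they had received BMP2, a bone morphogenetic protein that drives cartilage differentiation, at a labelled 100 ng/µl for 3 days (4 control and 4 cKO samples). The 8 other samples were cartilage of mice at postnatal day 5, cleaned with collagenase, with 4 samples labelled flox and 4 labelled cKO, with replicates 1 and 2 of each genotype male and replicates 3 and 4 female. Dnmt1 is the enzyme that copies DNA methylation onto the new strand after replication.

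Mitochondrial DNA is a small circle inherited apart from the nuclear chromosomes. Its protein-coding genes all encode membrane subunits of the oxidative phosphorylation machinery: the mt-Nd genes encode subunits of complex I (NADH dehydrogenase), mt-Cytb the cytochrome b of complex III, the mt-Co genes the core of complex IV (cytochrome c oxidase), and mt-Atp6 and mt-Atp8 parts of the ATP synthase. Both strands are transcribed into long joint precursors, mostly cut at the transfer RNAs between the genes, so the amount of each mature RNA depends on cutting and decay as well as on transcription. Growth plate chondrocytes, which work at low oxygen, are known for relying strongly on glycolysis.

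All but 1 of the 13 protein-coding genes are annotated on the plus strand of the mitochondrial chromosome (M). The exception is mt-Nd6, on the minus strand at M 13552 to 14070, which overlaps the end of its neighbour mt-Nd5 (plus strand, M 11742 to 13565) by 14 bases. Both genes matter below because they were the protein-coding genes that rose in cKO cartilage. The strand setting of the counting is not given in the sources used here, so reads in the shared bases cannot be told apart. Whether reads counted for the rest of mt-Nd6, or for minus-strand transfer RNA genes, came from the annotated strand was not tested either. The sequences shown here are from the GENCODE release M21 transcripts on GRCm38, written 5′ to 3′ in the sense of each gene. The last 60 bases of mt-Nd6 (chrM:13552-13611, minus strand) and the whole of the transfer RNA gene mt-Tc (chrM:5192-5257, minus strand), the transfer RNA for cysteine, are given first. The capitals mark the 14 bases of mt-Nd6 that lie opposite the end of mt-Nd5. 
mt-Nd6: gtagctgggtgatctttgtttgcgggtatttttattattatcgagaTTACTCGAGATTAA
mt-Tc: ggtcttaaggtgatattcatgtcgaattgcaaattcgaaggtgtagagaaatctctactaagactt

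The second set sets ends of mitochondrial genes beside annotated nuclear sequences that match them. Nuclear DNA holds inserted copies of mitochondrial DNA, and the cartilage libraries were read only near the 3′ end of each RNA. The 60 bases before the last base of mt-Co3 (chrM:9330-9389, plus strand) and the matching bases of Gm28437, an annotated nuclear pseudogene (chr1:24613189-24613248, minus strand), differed at 0 of 60 positions. The last 60 bases of mt-Nd2 (chrM:4892-4951, plus strand) differed from Gm13339 (chr2:22590024-22590083, minus strand) at 3 positions, in capitals, which are A13G, C21T and C56T with the mitochondrial base first and positions counted from 1 at the 5′ end of the window. The last 60 bases of mt-Cytb (chrM:15229-15288, plus strand) are shown as an end for which no annotated nuclear copy was found. 
mt-Co3: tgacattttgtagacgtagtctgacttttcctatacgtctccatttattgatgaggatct
Gm28437: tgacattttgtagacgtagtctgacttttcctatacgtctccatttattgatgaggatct
mt-Nd2: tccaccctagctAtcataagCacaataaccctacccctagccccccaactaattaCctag
Gm13339: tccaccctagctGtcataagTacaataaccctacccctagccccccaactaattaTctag
mt-Cytb: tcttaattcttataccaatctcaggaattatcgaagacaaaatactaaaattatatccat

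Libraries held between 41749327 and 51741478 counts at day 0, between 14434197 and 18918714 at day 3 and between 1100198 and 1888896 in cartilage by the whole-number counts. Dnmt1 was lower in the cKO samples of all 3 settings, at 151 ± 6.61 against 27.8 ± 3.09 CPM at day 0 (mean ± SD, n = 3 and 3), 70.8 ± 8.63 against 26.6 ± 11.8 CPM at day 3 (n = 4 and 4) and 42.5 ± 6.18 against 13.2 ± 1.09 CPM in cartilage (n = 4 and 4). CPM values are gene counts divided by a library total that was scaled between libraries. The day 3 cKO cultures ranged most, with Dnmt1 at 35.5, 36.4, 23.0 and 11.6 CPM in replicates 1 to 4. Levels of several cell type markers moved with genotype. Beside the counts of called markers below, edgeR called 33.0% of all genes higher in cKO and 31.6% lower at day 0. It called 25.5% higher and 22.6% lower at day 3, and 3.15% higher and 3.04% lower in cartilage. The cultures and the tissue are labelled as chondrocytes or cartilage, and the summed level of 10 chondrocyte markers was 133800 to 141619 CPM in control and 47480 to 58096 CPM in cKO cultures at day 0 (all 10 lower), 91998 to 113982 against 1209 to 17285 CPM at day 3 (8 lower), and 65230 to 97716 against 29896 to 60053 CPM in cartilage (3 lower). The summed level of the skeletal muscle markers was 13.2 to 14.4 against 53.5 to 55.5 CPM at day 0, 4.14 to 5.02 against 166 to 2294 CPM at day 3, and 14.9 to 20.2 against 53.5 to 85.6 CPM in cartilage (4 of 8, 9 of 9 and 1 of 1 tested were higher in cKO). Of the muscle markers, Myod1 had no count in the day 0 controls, Myl1 none in the day 0 cKO cultures, Myh3 none in control cartilage and Myog none in cKO cartilage. Fibroblast markers were at 3851 to 5832 against 2043 to 2793 CPM at day 0 (5 of 6 lower). At day 3 they went the other way, at 9225 to 10313 against 11336 to 13660 CPM (2 of 6 higher, 0 lower), and in cartilage 0 of 6 were called. Osteoblast markers were at 26.7 to 34.3 against 14.5 to 37.0 CPM at day 0 (1 of 3 tested higher). At day 3 they were at 45.3 to 79.6 against 161 to 396 CPM (4 of 5 tested higher), and in cartilage 0 of 2 tested were called. At day 0 both endothelial markers tested and 3 of 4 macrophage and leukocyte markers tested were higher in cKO, at summed levels of 1.11 to 1.41 against 3.64 to 4.09 CPM and 2.43 to 3.19 against 4.30 to 5.55 CPM. In cartilage all 3 osteoclast markers tested and all 4 erythroid markers tested were lower in cKO, at summed levels of 126 to 458 against 59.6 to 119 CPM and 166 to 916 against 13.4 to 389 CPM, with Alas2 at 0 in all cKO libraries. In bulk samples such as these, fewer cells of a type and less RNA per cell cannot be told apart. All control cartilage libraries lay in pool 1 and all cKO cartilage libraries in pool 2, so pool and genotype cannot be told apart in cartilage. The labels do not say whether replicates came from separate animals or cultures beyond calling them biological replicates, so p-values measure the spread between these samples.

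The 13 protein-coding genes together took a larger share of all counts in cKO than in control libraries in each of the 3 settings. At day 0 the share was 1.55, 1.72 and 1.71% in control replicates 1 to 3 and 1.95, 1.86 and 2.14% in the cKO replicates. At day 3 it was 2.32, 2.18, 2.12 and 2.23% in control replicates 1 to 4 and 2.65, 2.82, 2.74 and 2.78% in the cKO replicates. In cartilage it was 1.79, 2.13, 1.95 and 2.01% in control replicates and 2.52, 2.78, 2.52 and 2.57% in the cKO replicates, by the whole-number counts. The control and cKO ranges did not overlap in any of the 3. The means ± SD were 1.66 ± 0.0970% against 1.98 ± 0.144% at day 0, 2.21 ± 0.0815% against 2.75 ± 0.0730% at day 3 and 1.97 ± 0.140% against 2.60 ± 0.127% in cartilage. By the estimated counts of the same cartilage libraries the means were 4.14 ± 0.268% and 4.76 ± 0.185%. Nearly all of the whole-number share came from mt-Nd1, mt-Nd2, mt-Nd4, mt-Nd5, mt-Nd6 and mt-Cytb. In control cartilage mt-Co1 gave 1.91% and mt-Co2 0.248% of the whole-number counts of the 13 genes. In the estimated counts mt-Co2 gave 18.8% of them there. A share also moves when other abundant genes change. The chondrocyte marker sums given above were lower in cKO, and their part in the shares was not tested. With the called genes of an absolute log2 fold change of at least 3 left out of the total, the means were 2.50% in control and 3.04% in cKO cultures at day 3. At day 0 they were 1.67% in control and 2.18% in cKO cultures. The control mean there moved only from 1.66 to 1.67%, so the chondrocyte markers, at 133800 to 141619 CPM in control, mostly stayed in the total.

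The ribosomal RNA genes were the most abundant mitochondrial RNAs of the cartilage libraries in the whole-number table. mt-Rnr1 and mt-Rnr2 encode the RNAs of the small and large subunits of the mitochondrial ribosome. Together they took 5.67, 6.28, 12.7 and 4.20% of counts in control replicates 1 to 4 and 6.91, 7.83, 9.25 and 7.56% in the cKO replicates. The groups overlapped, and the control female replicate 3 was the highest library. The 16 transfer RNA genes together took 0.00695 ± 0.000737% in control and 0.0115 ± 0.00221% in cKO cartilage (mean ± SD, n = 4 and 4).

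**Figure D1:**
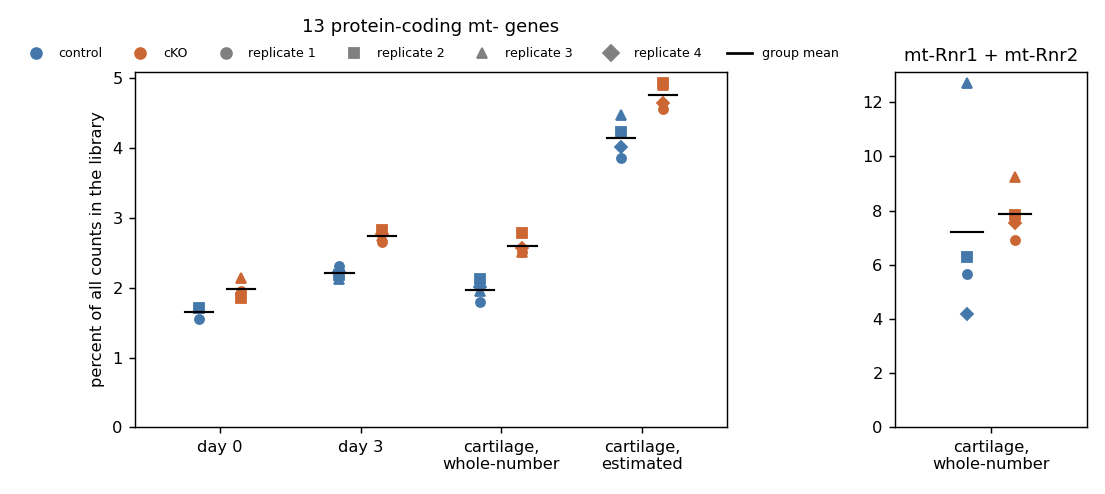
Share of all counts in each library, in percent on the y axis, from the 13 protein-coding mitochondrial genes in the day 0 cultures, day 3 cultures and both cartilage tables, and from the 2 ribosomal RNA genes in cartilage; each point is a library and each bar the group mean. The cKO libraries lay above the control libraries for the protein-coding genes in each panel by the whole-number and culture counts, while the ribosomal RNA shares overlapped, with control replicate 3 at 12.7%.

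Within the mitochondrial messenger RNAs of the cultures, mt-Co1 had the highest level per length in all 4 groups and mt-Nd3 the lowest. Levels per length are counts divided by gene length, given as a share of the summed value of the 13 genes. In control cultures at day 0 mt-Co1 was at 16.7 ± 0.22% (mean ± SD, n = 3), mt-Co2 at 15.0 ± 0.56%, mt-Atp6 at 12.5 ± 0.11% and mt-Co3 at 11.9 ± 0.05%. Each of these ranges lay apart from the next. mt-Cytb at 7.71 ± 0.09% and mt-Nd1 at 7.69 ± 0.04% did not differ beyond their spread, nor did neighbours in the order mt-Nd6 (4.28 ± 0.16%), mt-Atp8, mt-Nd5, mt-Nd2 and mt-Nd4l (4.01 ± 0.05%). mt-Nd4 lay between these sets at 5.47 ± 0.27%, and mt-Nd3 was at 2.29 ± 0.10%. In cKO cultures at day 0 mt-Co1 was at 14.04 ± 0.25%, below its control range, and mt-Atp6 at 13.6 ± 0.25%, above its control range. mt-Co1, mt-Atp6 and mt-Co2 then overlapped with their neighbours in the order. At day 3 mt-Co1 was at 15.4 ± 0.77% in control and 15.4 ± 0.19% in cKO cultures (n = 4 and 4). mt-Nd2 was at 3.48 ± 0.05% in control and 4.21 ± 0.34% in cKO cultures at day 3, without overlap. In cartilage the libraries hold reads near the 3′ ends only, so no level per length is given for them.

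At day 0, 9 of the 13 protein-coding genes were higher in cKO than in control cultures: 6 of the 7 complex I genes (all but mt-Nd4), mt-Cytb and both ATP synthase genes. Their increases were modest, between 1.12-fold and 1.37-fold. The 3 complex IV genes and mt-Nd4 did not pass the edgeR test. DESeq2 called 11 of the 13, adding mt-Co3 (adjusted p = 0.0279) and mt-Nd4 (0.0278), where it called 30.6% of all genes higher. Over the 13 genes the median log2 fold change was 0.24, against 0.0096 over all 15530 genes tested. Of all genes tested, 33.0% were called higher and 64.5% changed in either direction (edgeR quasi-likelihood test, Benjamini-Hochberg adjusted p under 0.05), so calls at day 0 were common throughout.

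mt-Nd3 was at 131, 148 and 157 CPM in the control replicates 1 to 3 and at 205, 178 and 215 CPM in the cKO replicates. All 3 cKO cultures lay above all 3 control cultures, and mt-Nd3, a small complex I subunit, had the highest fold change of the 13 at 1.37-fold (log2 0.45 ± 0.078 (SE), edgeR adjusted p = 0.000726). mt-Nd1 was at 1273, 1371 and 1378 CPM in the control replicates 1 to 3 and at 1676, 1571 and 1833 CPM in the cKO replicates (log2 0.34 ± 0.065, edgeR adjusted p = 0.00152). mt-Nd1 is the first protein-coding gene after the ribosomal RNAs on the plus strand, at M 2751 to 3707. mt-Nd2 was at 691, 798 and 813 CPM in the control replicates 1 to 3 and at 1005, 885 and 1078 CPM in the cKO replicates (log2 0.37 ± 0.083, edgeR adjusted p = 0.00365). For mt-Nd1 and mt-Nd2 too the groups did not overlap, with cKO replicate 3 highest and control replicate 1 lowest. mt-Cytb was at 1537, 1627 and 1659.8 CPM in the control replicates 1 to 3 and at 2000.1, 1903 and 2185 CPM in the cKO replicates (log2 0.34 ± 0.064, edgeR adjusted p = 0.00131). The ATP synthase genes mt-Atp6 and mt-Atp8, which overlap by 43 bases on 1 strand, had log2 fold changes of 0.30 and 0.37 (edgeR adjusted p = 0.00241 and 0.00210). The smallest changes that passed were those of mt-Nd4l (0.24, adjusted p = 0.0237), mt-Nd5 (0.20, 0.0172) and mt-Nd6 (0.17, 0.00367) on the log2 scale. Of these, mt-Nd6 was at 399, 408 and 407 CPM in control and 437, 453 and 474 CPM in cKO cultures, a narrow but complete separation. The call of mt-Nd4l was lost without cKO replicate 3 (adjusted p = 0.0564), control replicate 1 (0.0996) or control replicate 2 (0.0539), and that of mt-Nd5 without control replicate 1 (0.0565). Without cKO replicate 3 the median over the 13 genes was 0.15.

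The complex IV genes, which encode the catalytic core of cytochrome c oxidase, had the 3 smallest absolute fold changes at day 0. mt-Co1 was at 4392, 4887 and 4855 CPM in the control replicates 1 to 3 and at 4323, 4279.6 and 4813 CPM in the cKO replicates, with overlapping groups (log2 -0.075, edgeR adjusted p = 0.427). mt-Co2 was at 1847, 1888 and 1885 CPM in the control replicates 1 to 3 and at 1821, 1835 and 2032 CPM in the cKO replicates, also with overlap (log2 0.017, adjusted p = 0.812). mt-Co3 was at 1596 to 1747 CPM in control and 1789 to 1946 CPM in cKO cultures without overlap, at log2 0.12 and an edgeR adjusted p of 0.0947. mt-Nd4 overlapped between groups (log2 0.19, adjusted p = 0.102, and 0.0433 when its counts were summed with those of its nuclear copy). In all, 10 of the 13 genes had cKO cultures wholly above control cultures at day 0, a pattern found in 35.9% of all genes tested. The count of 9 called genes fell to 5 when the spread was estimated over all 14 cultures, a fit that called 21.1% of all genes higher and in which mt-Atp8, mt-Nd4l, mt-Nd5 and mt-Nd6 no longer passed. The chondrocyte and muscle marker sums differed between these groups as given above, and their part in these values was not tested.

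**Figure D2:**
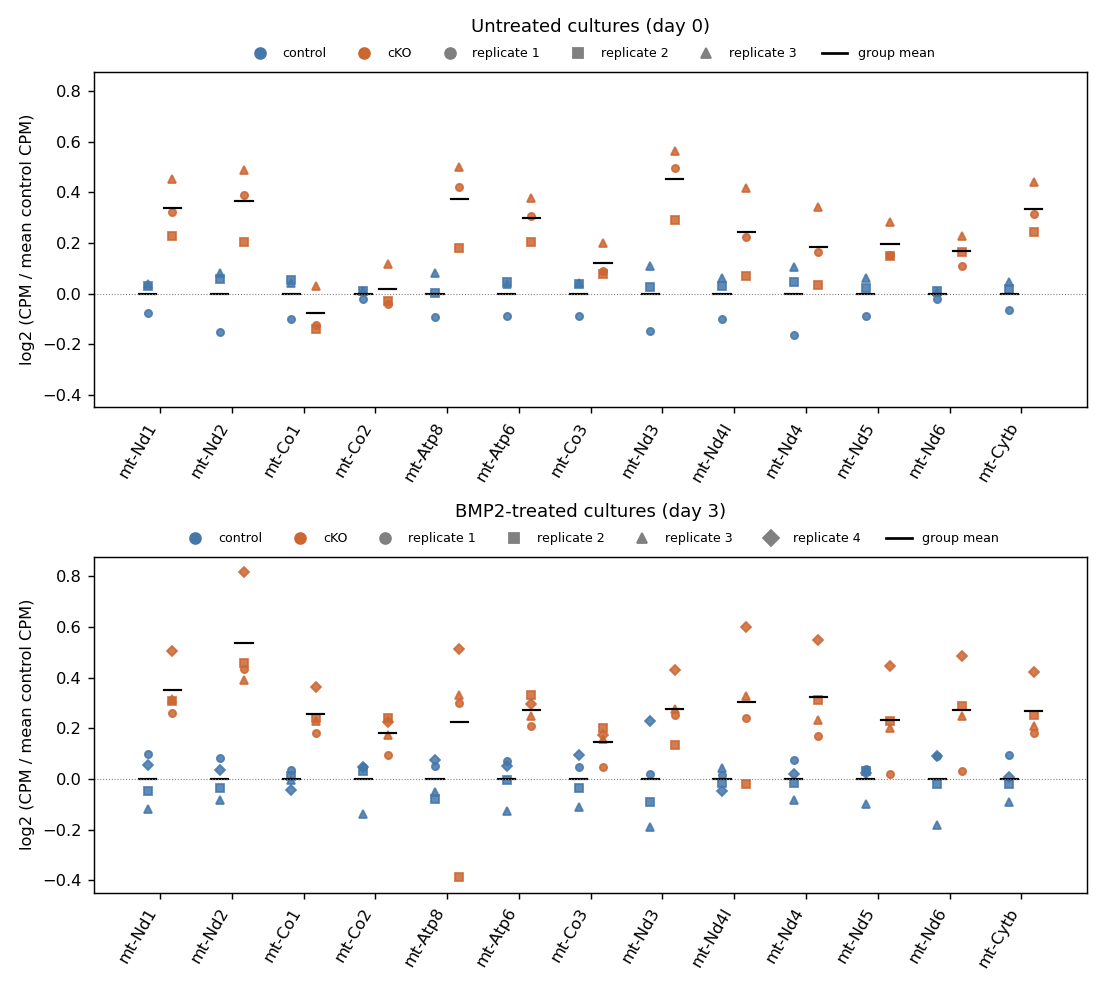
Level of each of the 13 protein-coding mitochondrial genes in each culture, as log2 of its CPM over the mean control CPM (y axis), in genome order along the x axis, with day 0 above and day 3 below; marker shape gives the replicate and color the genotype. At day 0 the cKO points lie above the control points for 10 of 13 genes, and mt-Co1 and mt-Co2 overlap; at day 3 they do so for 7 genes, with cKO replicate 4 highest for most.

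At day 3, after BMP2, 3 of the 13 protein-coding genes passed the test, all of complex I and all higher in cKO: mt-Nd2, mt-Nd1 and mt-Nd4. All 13 log2 fold changes were above 0, with a median of 0.27 against 0.011 over all genes tested. Of all genes tested, 25.5% were called higher and 48.1% changed in either direction, so 3 of 13 called higher was near the share of all genes. By unadjusted p under 0.05 there were 8 of 13 genes, where 7672 of all 13924 genes tested met that threshold in either direction. DESeq2 called 11, where it called 26.6% of all genes higher, and a fit over all 14 cultures called 9, where it called 30.3% higher. mt-Nd2 was at 918, 847, 819 and 889 CPM in the control replicates 1 to 4 and at 1174, 1194, 1138 and 1529 CPM in the cKO replicates. The lowest cKO culture lay above the highest control culture, and the difference was 1.45-fold (log2 0.54 ± 0.12 (SE), edgeR adjusted p = 0.00559). mt-Nd1 was at 1258, 1136, 1084 and 1222 CPM in the control replicates 1 to 4 and at 1406, 1456, 1463 and 1666 CPM in the cKO replicates, again without overlap (log2 0.35 ± 0.10, edgeR adjusted p = 0.0189). mt-Nd4 was at 2129.5, 2000.4, 1912 and 2049 CPM in the control replicates 1 to 4 and at 2273, 2508, 2376 and 2958 CPM in the cKO replicates (log2 0.32 ± 0.12, edgeR adjusted p = 0.0489). mt-Nd4, at M 10167 to 11544, was wholly separate between the groups, but its call was lost without any 1 of the 8 cultures other than cKO replicate 4 (adjusted p = 0.0508 to 0.123). The call of mt-Nd1 was lost without control replicate 2 (adjusted p = 0.0663), which left 1 gene called, and that of mt-Nd2 held without any 1 culture. In 7 of the 13 genes every cKO culture lay above every control culture, a pattern found in 25.2% of all genes tested.

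The other 10 genes had log2 fold changes between 0.15 and 0.30 at day 3 and did not pass. mt-Atp6 was at 1905 to 2181 CPM in control and 2400.1 to 2614 CPM in cKO cultures without overlap (log2 0.27, edgeR adjusted p = 0.0503). mt-Cytb was at 2489.7 to 2834 and 3005 to 3551 CPM, also without overlap (log2 0.27, adjusted p = 0.0741). mt-Co1 was at 5851, 5760.4, 5700.2 and 5543 CPM in control and 6478, 6744, 6704 and 7354 CPM in cKO cultures (log2 0.26, adjusted p = 0.112). All 4 cKO cultures were above the controls for mt-Co1, and the cKO replicate 4 was highest. That culture was the highest cKO culture by CPM for most of the 13 genes, and it had the lowest Dnmt1 of the day 3 cultures. Its library total was scaled by 0.938, against 1.04 to 1.05 in the other cKO cultures. By unscaled share of counts it was not the highest, at 2.78% against 2.82% in replicate 2. Whether its mitochondrial levels went with Dnmt1 was not tested. mt-Atp8 varied widely, at 259.6, 161, 265 and 300.5 CPM in the cKO replicates with replicate 2 lowest, and at 199 to 222 CPM in control cultures (log2 0.23, adjusted p = 0.305). The remaining fold changes, of mt-Nd3, mt-Nd4l, mt-Nd5, mt-Nd6, mt-Co2 and mt-Co3, lay between 0.15 and 0.30 on the log2 scale. Muscle marker sums of 166 to 2294 CPM in these cKO cultures moved with genotype as well, and their part in the day 3 values was not tested.

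Whether the genotype effect differed between day 3 and day 0 was tested as an interaction over all 14 cultures, and edgeR called 0 of the 13 genes. By unadjusted p under 0.05 there was 1, mt-Co1, where 4598 of all 14909 genes tested met that threshold. The effect on mt-Co1 was higher at day 3 by 0.31 on the log2 scale (edgeR adjusted p = 0.136). DESeq2 called that gene alone (adjusted p = 0.00263). Of all genes tested, 16.8% were called in this interaction by edgeR and 22.7% by DESeq2. The day 0 and day 3 comparisons do not share samples.

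**Figure D3:**
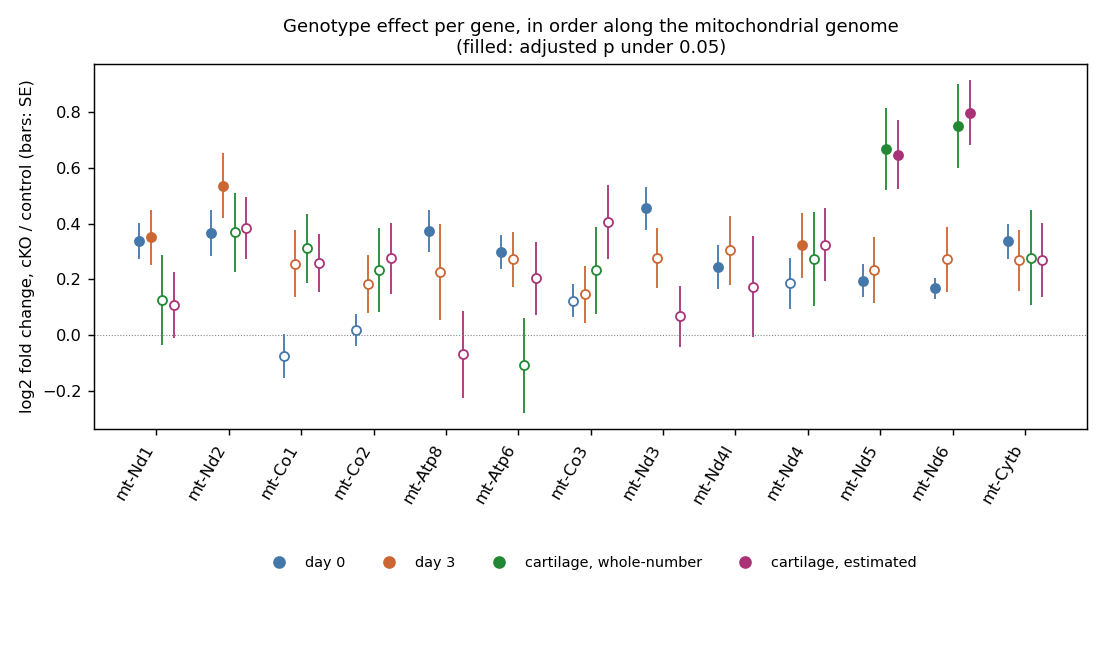
Fold change of cKO over control on the log2 scale (y axis, with standard error bars) for each protein-coding mitochondrial gene in genome order along the x axis, for day 0, day 3 and both cartilage tables; filled points passed an adjusted p of 0.05. Complex I and mt-Cytb points lie above 0 at day 0 while mt-Co1 and mt-Co2 lie near 0, and in cartilage the filled points are mt-Nd5 and mt-Nd6.

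Mitochondrial transcripts also differed between the culture days. In control cultures 8 of the 13 genes were higher at day 3 than at day 0 and 1 was lower, and in cKO cultures 9 were higher and 1 was lower. The background was 56.9% of all genes called in control and 62.2% in cKO cultures (28.1 and 32.4% higher, 28.8 and 29.8% lower). Day, BMP2 treatment and the deposited table change together here and cannot be told apart. mt-Cytb was higher at day 3 by 0.62 ± 0.089 on the log2 scale in control (edgeR adjusted p = 6.60e-05) and by 0.54 ± 0.089 in cKO cultures (adjusted p = 0.000189). mt-Nd6 was higher by 0.58 in control and 0.66 in cKO cultures, and mt-Nd5 by 0.47 and 0.49, all 4 called. mt-Atp6 was called in both too, though not in cKO cultures without cKO day 0 replicate 2 (adjusted p = 0.0710). mt-Nd1 went the other way, at log2 -0.29 ± 0.086 in control (edgeR adjusted p = 0.0117) and -0.29 ± 0.086 in cKO cultures (adjusted p = 0.00918, and 0.0525 without cKO day 0 replicate 3). The count ratio of mt-Nd1 to mt-Cytb was 0.826 to 0.843 in the 6 day 0 cultures and 0.434 to 0.478 in the 8 day 3 cultures, so the separation between days held in every library and in both genotypes. mt-Co1 and mt-Co2 passed the test in cKO cultures (log2 0.49 and 0.35) and had log2 fold changes of 0.18 and 0.20 in control cultures without passing, a difference that is the interaction given above.

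In cartilage, 2 of the 10 protein-coding genes that passed the count filter were higher in cKO, mt-Nd6 and mt-Nd5. mt-Nd6 is annotated on the minus strand and overlaps the end of mt-Nd5, and the strand of the counted reads was not tested. The other 3 genes, mt-Atp8, mt-Nd3 and mt-Nd4l, had too few whole-number counts to be tested. Of all genes tested in cartilage, 3.15% were called higher, 3.04% lower and 6.19% in either direction. mt-Nd6 was at 2558, 2279.8, 2417 and 1986 CPM in the control replicates 1 to 4 and at 4003, 4196, 3788 and 3562 CPM in the cKO replicates. The lowest cKO library lay well above the highest control library (1.68-fold, log2 0.75 ± 0.15 (SE), edgeR adjusted p = 0.00614). mt-Nd5 was at 1935, 1541, 1555 and 1358 CPM in the control replicates 1 to 4 and at 2662, 2492, 2626 and 2333 CPM in the cKO replicates (1.59-fold, log2 0.67 ± 0.15, adjusted p = 0.0133). These groups did not overlap either, and control replicate 1 was the highest control library for both genes. In the estimated counts of the same libraries both were called as well, where 3.56% of all genes were called higher, at log2 0.80 ± 0.12 for mt-Nd6 (edgeR adjusted p = 0.000717) and 0.65 ± 0.12 for mt-Nd5 (adjusted p = 0.00604). In the whole-number table the call of mt-Nd5 was lost without cKO replicate 1, control replicate 2 or control replicate 4 (adjusted p = 0.057, 0.0647 and 0.0747), while that of mt-Nd6 held without any 1 library.

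The other protein-coding genes of cartilage lay closer to control. mt-Cytb was at 3616, 4897, 4896 and 4351 CPM in the control replicates 1 to 4 and at 5238, 6104, 5139 and 5059 CPM in the cKO replicates, without overlap and with control replicate 1 lowest (log2 0.28, edgeR adjusted p = 0.364). mt-Nd2 was at 1499 to 1898 CPM in control and 2123 to 2417 CPM in cKO libraries (log2 0.37, adjusted p = 0.142). mt-Co1 was at 349.7 to 421 and 459 to 539 CPM (log2 0.31, adjusted p = 0.153). Neither gene overlapped between groups, and 5 of the 10 tested genes had this pattern in the direction of cKO, against 7.12% of all genes. mt-Nd1 was near control at log2 0.13 (adjusted p = 0.695) and mt-Nd4 at 0.27 (0.367). mt-Co2, mt-Co3 and mt-Atp6 had log2 fold changes of 0.23, 0.23 and -0.11, but rest on the small part of their reads that this table holds, as described below. Pool and genotype cannot be told apart for any of these values, and the lower chondrocyte, osteoclast and erythroid marker levels in cKO cartilage moved with them, a part that was not tested.

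The ratio of mt-Nd6 to mt-Cytb counts, which leaves library depth out, was 0.707, 0.466, 0.494 and 0.456 in control replicates 1 to 4 and 0.764, 0.687, 0.737 and 0.704 in the cKO replicates. Control replicate 1 lay within the cKO range, and the other control libraries below it. In the estimated counts the ratio was 0.735, 0.509, 0.529 and 0.492 in control and 0.853, 0.761, 0.826 and 0.785 in cKO replicates, without overlap and with control replicate 1 again the highest control library. The ratio of mt-Nd5 to mt-Cytb was 0.535, 0.315, 0.318 and 0.312 in control and 0.508, 0.408, 0.511 and 0.461 in cKO replicates, with control replicate 1 highest of all 8. In the estimated counts it was 0.684, 0.410, 0.416 and 0.409 in control and 0.661, 0.527, 0.658 and 0.598 in cKO replicates, again with control replicate 1 highest of all. In the cultures, where mt-Nd6 was also called at day 0, its fold changes (0.17 at day 0 and 0.27 at day 3 on the log2 scale) were within the range of the plus-strand genes.

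Among the transfer RNA genes, mt-Tc was the 1 that passed the test, and it is also annotated on the minus strand. Its counts were 18, 21, 17 and 17 in control replicates 1 to 4 and 36, 29, 35 and 46 in the cKO replicates, without overlap (2.35-fold, log2 1.23 ± 0.25 (SE), edgeR adjusted p = 0.00600). Of the 16 transfer RNA genes in the table, 4 passed the count filter, all on the minus strand. The others tested were mt-Te for glutamate (log2 0.82, adjusted p = 0.153), mt-Tn for asparagine (0.70, 0.152) and mt-Tp for proline (0.12, 0.807). mt-Te lies directly next to mt-Nd6, at M 14071 to 14139, while mt-Tc and mt-Tn lie in the cluster of minus-strand transfer RNAs before mt-Co1. Summed over the 7 minus-strand transfer RNA genes of the table, the counts were 78, 80, 71 and 91 in control replicates 1 to 4 and 110, 96, 105 and 134 in the cKO replicates, without overlap. Summed over the 9 plus-strand ones they were 18, 14, 14 and 27 in control and 21, 17, 18 and 28 in cKO replicates. In CPM of all counts, the minus-strand sums were 48.2 to 68.0 in control and 83.6 to 121.8 in cKO libraries, and the plus-strand sums 11.2 to 14.3 and 14.8 to 25.4, so neither pair of ranges overlapped once depth was divided out. The libraries were primed with oligo-dT, and mature transfer RNAs carry no poly(A) tail, and whether these counts come from precursors or from priming within other RNAs was not tested.

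mt-Rnr1 was at 14549, 11713, 25880.3 and 9781 CPM in the control replicates 1 to 4 and at 17329, 15917, 34841 and 12529 CPM in the cKO replicates (log2 0.38, edgeR adjusted p = 0.526). mt-Rnr2 was at 45697, 51302, 119912 and 31064 CPM in the control replicates 1 to 4 and at 53566, 62665, 61301 and 59119 CPM in the cKO replicates (log2 -0.033, adjusted p = 0.967). For both genes the groups overlapped. Without control replicate 3 the mt-Rnr2 value turned to 0.52 and the mt-Rnr1 value was 0.69, and leaving out 1 library at a time gave -0.28 to 0.52 for mt-Rnr2 and 0.014 to 0.69 for mt-Rnr1, where the lowest mt-Rnr1 value was without cKO replicate 3. The female replicate 3 was the highest library of its genotype for mt-Rnr1 in both genotypes and for mt-Rnr2 in control. A test of whether the genotype effect differed between the sexes called 0 of the 10 protein-coding genes by edgeR and 0 by DESeq2. It had 2 libraries per sex and genotype, and either tool called 0.0114% of all genes. By unadjusted p under 0.05 it was 0 of the 10, where 437 of all 8793 genes met that threshold.

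**Figure D4:**
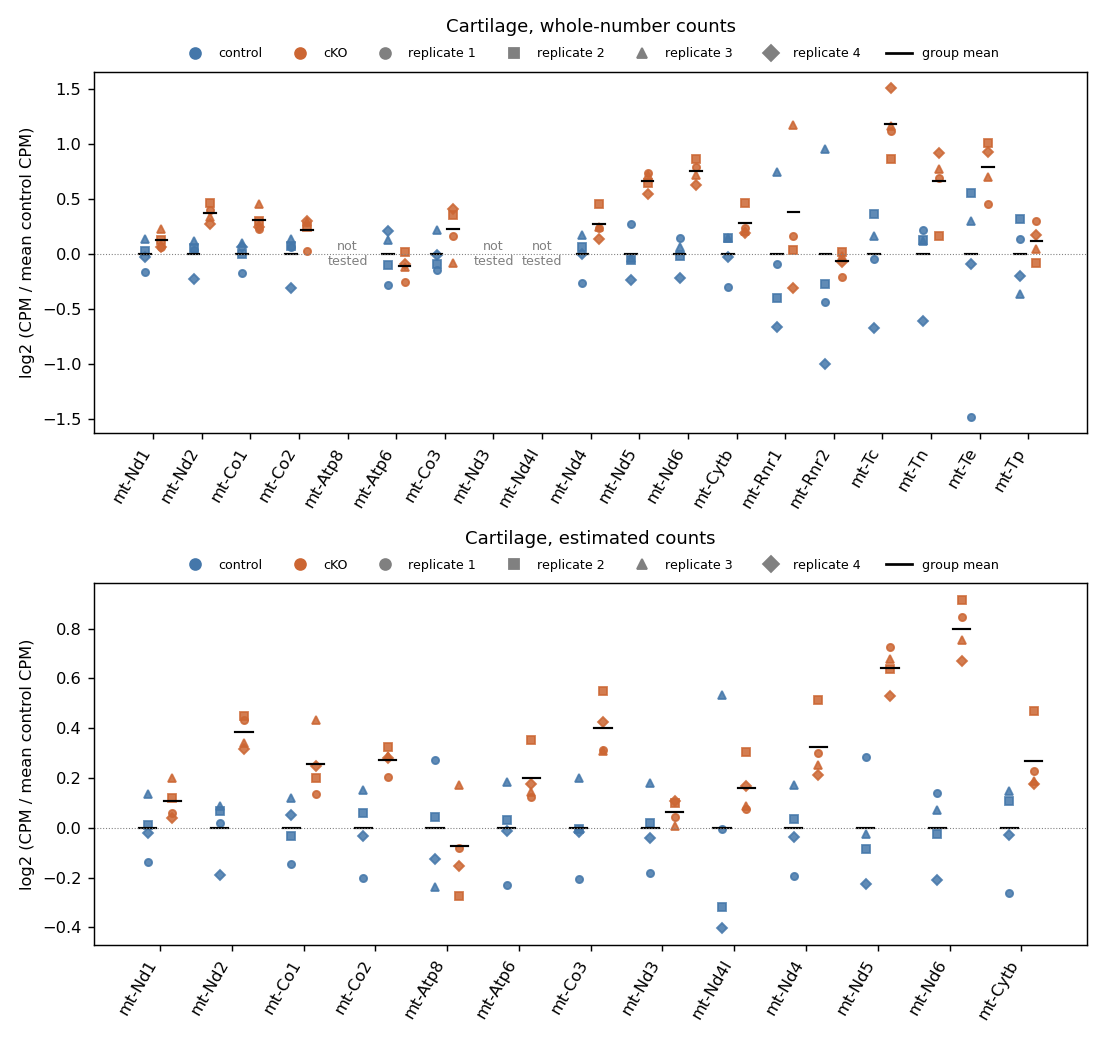
Level of each mitochondrial gene in each cartilage library as log2 of its CPM over the mean control CPM (y axis). The protein-coding genes are in genome order along the x axis, with the whole-number table above and the estimated counts below. Above, the ribosomal and tested transfer RNA genes follow after them. Marker shape gives the replicate and color the genotype. The cKO libraries lie above the control libraries for mt-Nd5, mt-Nd6 and mt-Tc, and control replicate 3 stands out for mt-Rnr2.

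The cartilage libraries were deposited in 2 count tables that differed sharply for 6 of the 13 protein-coding genes. mt-Co3 had 50 to 91 counts per library in the whole-number table and 11822 to 20084 in the estimated counts. mt-Co2 had 61 to 80 against 13521 to 22671, and mt-Atp6 32 to 72 against 9234 to 16017. These genes kept under 1% of their estimated counts in the median library: 0.436% for mt-Co3, 0.423% for mt-Co2, 0.335% for mt-Atp6, 0.368% for mt-Nd3 and 0.594% for mt-Nd4l. mt-Nd1, mt-Nd2, mt-Nd4, mt-Nd5, mt-Nd6 and mt-Cytb kept 56.3 to 77.2%. mt-Co1 kept 29.3%, but most estimated counts of mt-Co1 and its nuclear copies lay in the copies, as given below. Exact nuclear matches of the 3′ ends were counted beside these values. An 81-base window, the length of the cartilage insert read, was slid over the last 300 bases of each gene and looked up in all annotated nuclear transcripts. For mt-Co1, mt-Co2, mt-Co3, mt-Atp6, mt-Nd3 and mt-Nd4l, 98.6 to 100% of windows were found exactly in a nuclear transcript. For mt-Nd2 22.3% were found, and for the remaining 6 genes 0%. Of these 6, mt-Atp8 had 0 to 1 whole-number counts against 81 to 155 estimated. mt-Nd2, whose last 300 bases are all covered by Gm13339 at 96.67% identity, kept 56.3%.

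The copies come from 11 annotated nuclear pseudogenes that matched 9 of the mitochondrial genes. Of these, 7 stand in 1 block on chromosome 1 (chr1:24611535-24616197, minus strand, 4663 bases, GRCm38) at 99.71 to 100% identity to the mitochondrial genes from mt-Nd4 back to the 3′ end of mt-Co1. Between the copies of mt-Atp6 and mt-Co2 in that block lie 233 bases that carry no annotated copy of mt-Atp8. Whether those bases match mt-Atp8 was not tested. How reads that match several places were counted is not given in the sources used here. Summed over the 8 libraries, mt-Co3 held 515 whole-number counts and its copy Gm28437 held 9006, against 120402 estimated counts in mt-Co3 and 0 in Gm28437. mt-Co2 held 549 whole-number counts and its copies 2780, against 131237 estimated counts in mt-Co2. For neither mt-Co3 nor mt-Co2 did the copies hold the difference between the tables, and its cause was not tested. mt-Co1 held 4428 whole-number counts and its copies 1201, against 14902 estimated counts in mt-Co1 and 94068 in its copies. The 29.3% kept by mt-Co1 therefore leaves out most of the estimated counts of this sequence.

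Gm28437 had 650 to 1125 whole-number counts in control and 1346 to 1511 in cKO libraries (2.07-fold, log2 1.05 ± 0.15, edgeR adjusted p = 0.000326). Its mitochondrial counterpart mt-Co3 had a log2 fold change of 0.40 in the estimated counts and did not pass (adjusted p = 0.0907). Gm29216, the copy of the mt-Co1 3′ end, had 66 to 123 against 115 to 132 whole-number counts (log2 0.86 ± 0.13, edgeR adjusted p = 0.000549), and 9719 to 16752 against 11073 to 13073 estimated counts (log2 0.27, adjusted p = 0.236). It was called higher by the first table only, and whether the tables' fold changes differ was not tested. Gm10925, the copy of mt-Atp6, went the other way with 77 to 161 whole-number counts in control and 33 to 55 in cKO libraries (log2 -0.95 ± 0.17, adjusted p = 0.00299), beside a log2 fold change of 0.20 for mt-Atp6 in the estimated counts (adjusted p = 0.388). The copies Gm13339, Gm13340, Gm13341, Gm28438, Gm28439 and Gm28661 did not pass. At day 0 Gm29216 was lower in cKO cultures, with 6114 to 7438 estimated counts in control and 1984 to 3688 in cKO (log2 -1.30 ± 0.18, edgeR adjusted p = 0.000171), while mt-Co1 did not pass there.

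**Figure D5:**
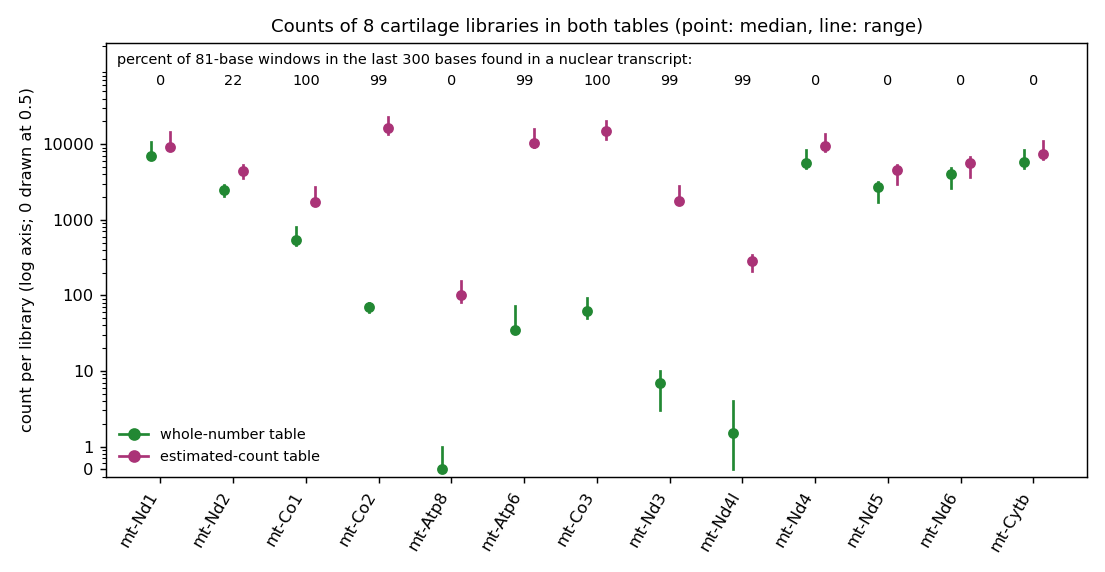
Counts per cartilage library (y axis, log scale, 0 drawn at 0.5) of the 13 protein-coding mitochondrial genes along the x axis in the whole-number and the estimated table, with the percent of 81-base windows of each gene's last 300 bases found in a nuclear transcript. The genes with nearly all windows found in a nuclear transcript hold fewer whole-number than estimated counts, mt-Co3 for example 50 to 91 against 11822 to 20084, and so does mt-Atp8, with 0% of windows found.

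The nuclear genes that transcribe mitochondrial DNA, maintain it and process its RNA were counted from 3 lists, with 10, 12 and 23 genes in the culture tables. At day 0, where all 45 were tested, 7 were higher and 21 lower in cKO cultures, and at day 3 4 were higher and 15 lower, with median log2 fold changes of -0.093 and -0.11. Of all genes tested, 33.0% were called higher and 31.6% lower at day 0, and 25.5% higher and 22.6% lower at day 3. In cartilage 19 were tested, and 1 was called, Pnpt1, where 6.19% of all genes were called. In the transcription list, the DNA-packaging and transcription factor Tfam was lower at day 0 (log2 -0.35 ± 0.04, edgeR adjusted p = 8.97e-05) and at day 3 (-0.33 ± 0.09, adjusted p = 0.0153). Tfam was at 42.6 ± 1.17 CPM in control and 33.4 ± 1.02 CPM in cKO cultures at day 0 (n = 3 and 3). In cartilage Tfam did not pass (log2 0.30, adjusted p = 0.431). The mitochondrial RNA polymerase Polrmt, named here for its role, was at log2 0.027 at day 0 (adjusted p = 0.685) and 0.19 at day 3 (0.081). The other named members of this list were Mterf4, higher at day 0 (0.40), and Tfb1m (-0.39 at day 0), Mterf3 (-0.29 at day 0 and -0.52 at day 3) and Mterf2 (-0.46 at day 3), all lower. In the DNA maintenance list the primase-polymerase Primpol was lower on both days (-0.66 at day 0 and -0.66 at day 3), as was the nucleoside kinase Dguok (-0.47 and -0.35). Top1mt, the mitochondrial topoisomerase, and Rnaseh1 were lower at day 0 (-0.50 and -0.26), and Polg2, the accessory subunit of the mitochondrial DNA polymerase, and the nuclease Exog at day 3 (-0.86 and -0.56).

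Pnpt1, in the RNA processing list, was the 1 gene of the 3 lists called in all 3 settings. It encodes polynucleotide phosphorylase, an exoribonuclease that degrades mitochondrial RNA together with the helicase of Supv3l1 and is also known as an interferon-inducible gene. At day 0 Pnpt1 was at 32.0, 31.0 and 31.0 CPM in control and 119, 118 and 130.3 CPM in cKO cultures (log2 1.97 ± 0.04 (SE), edgeR adjusted p = 3.01e-09). At day 3 it was at 23.8, 23.5, 22.6 and 21.8 CPM in control and 114, 106, 99.6 and 103 CPM in cKO cultures (log2 2.21 ± 0.07, adjusted p = 5.41e-07). In cartilage it was at 12.01, 9.39, 7.34 and 8.24 CPM in control and 213, 169, 152 and 149.9 CPM in cKO libraries (log2 4.19 ± 0.17, adjusted p = 4.39e-10). The groups were far apart in all 3 settings, and whether the fold changes differ between settings was not tested. Others of this list were lower in cKO: Fastk, a regulator of mt-Nd6 RNA (-0.89 at day 0), the ribosomal RNA methyltransferase Nsun4 (-0.81 at day 0 and -0.98 at day 3) and Hsd17b10, a subunit of the enzyme that cuts the 5′ ends of mitochondrial transfer RNAs (-0.65 at day 3). Fastkd3 (0.46 at day 0) and the pseudouridine synthase Pus1 (0.65 at day 3) were higher.

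The nuclear-encoded partners of the mitochondrial subunits, 36 subunits of complexes I, III, IV and V, included 3 called higher and 16 called lower in cKO cultures at day 0, where 33.0% of all genes were called higher and 31.6% lower. Their median log2 fold change was -0.072. The named ones were Uqcrq of complex III (-0.70), the ATP synthase c-subunit genes Atp5g1 (-0.52) and Atp5g2 (-0.39), and Cox6a1 of complex IV (-0.39). At day 3, 5 were higher and 7 lower, where 25.5% of all genes were called higher and 22.6% lower, and the median was -0.069. The named ones, all lower, were Atp5g1 (-0.78), Uqcrq (-0.40), the ATP synthase gamma subunit Atp5c1 (-0.40) and Cox7c (-0.35). In cartilage edgeR called 0 of the 35 tested and DESeq2 0, where edgeR called 6.19% of all genes and DESeq2 4.06%. By unadjusted p under 0.05 there were 5, where 1905 of all 8793 genes met that threshold. The median was -0.0039. Whether mitochondrial and nuclear genes of the same complex differ in fold change was not tested.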

How the data were processed

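RNA from 14 chondrocyte cultures and 8 cartilage samples was measured. Per the labels' protocols, the cultures were prepared with a directional kit and the cartilage with a barcoded 3′ method primed with oligo-dT. The authors deposited 1 table of estimated counts for each culture day and 1 for cartilage, and for cartilage also a table of whole-number counts. Of the values in the estimated tables, 27.5% (day 0), 20.5% (day 3) and 21.2% (cartilage) were not whole, and they were rounded before testing. Per the submitters' processing notes the build was GRCm38 and, for cartilage, UMI-tools 1.1.1, Trim Galore 0.6.7, HISAT2 2.2.1, featureCounts 2.0.1 and DESeq2 1.34.0 were used. Which of them made which table, the strand setting and the treatment of reads with several matches are not given in the sources used here.

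Genotypes were compared with the quasi-likelihood test of edgeR 4.0.16 (R 4.3.3) on counts scaled by TMM, after filterByExpr (minimum count 10, minimum total 15), with Benjamini-Hochberg adjustment over all genes and a threshold of 0.05. Day 0 and day 3 were fitted apart, cartilage with sex as a covariate, and the differences between days over all 14 cultures. DESeq2 1.42.0, other scalings, no filter, a replicate block, the estimated counts, sums with nuclear copies and leaving out each library were alternatives. Fold changes and CPM come from these fits, and ± after a log2 fold change is its standard error. The test was tried on simulated data. Copies were found with BLAST 2.17.0 (at least 95% identity over 100 bases) in GENCODE release 21 for mouse. A symbol was given for 34582 of the 34866 identifiers with estimated counts. The genes, the lists of nuclear genes and the markers were chosen with earlier results of these data known. All mitochondrial protein-coding and ribosomal RNA genes are named, transfer RNA genes where they passed the filter, and from each nuclear list up to 4 called genes with the largest absolute fold change and a mean log2 CPM of at least 1; copies are named at a mean count of at least 10. Of the 37 mitochondrial genes of the annotation, 6 transfer RNA genes were not analysed here.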

Additional observations from a re-analysis of the deposited data

Results flagged for a closer look

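Among 66 groups of 4 libraries, 4 held a library far from the other 3 of its group, where chance flags about 1 in 20 groups. In control cultures at day 3, replicate 3 was the low library for mt-Co2 (2094 CPM) and for mt-Nd5 (1902 CPM). In cKO cultures at day 3, replicate 4 was the high library for mt-Nd2 (1529 CPM), and mt-Nd2 was called without that culture too. In control cartilage, replicate 4 was the low library for mt-Tn (7.21 CPM).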

How the results depend on the processing

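At day 0 the count of genes called higher was 9, and 5 with the spread taken over all 14 cultures. At day 3 it was 3, and 11 with DESeq2, 9 over all 14 cultures and 1 with the replicate block, which called 2915 of all 13924 genes higher. In cartilage it was 2, and 4 in the estimated counts with DESeq2, where 370 of all 10872 genes were called higher. Summed with their nuclear copies, 1 gene was called lower (mt-Atp6, log2 -0.65) and mt-Co3 was called higher (log2 1.003). For the interaction DESeq2 called 1 gene. Leaving out 1 library gave 7 to 10 called higher at day 0, 1 to 4 at day 3, 1 to 2 in cartilage, and for day 3 against day 0 in cKO cultures 0 to 1 called lower. Over all genes, leaving out 1 library gave 4666 to 4963 called higher at day 0, 3059 to 4074 at day 3 and 200 to 297 in cartilage. Of the nuclear genes at day 3, 4 to 7 were called higher without 1 library, with 7 without cKO replicate 4. With strongly changed genes left out of the total, mean shares were 2.18% (cKO, day 0), 3.04% (cKO, day 3) and 2.50% (control, day 3). Without ribosomal RNA genes they were 3.21% in cKO and 2.35% in control cartilage, and by estimated counts 4.76% and 4.14%. With overlapping genes summed, mt-Nd4 per kb was 5.91% (cKO) and 5.80% (control) at day 0 and 6.83% and 6.55% at day 3, and mt-Atp6 was 12.4% in control at day 0. No value called in the main edgeR fits changed sign. Among values not called there, mt-Atp6 in cartilage went from -0.11 to 0.20 in the estimated counts. It was called lower (log2 -0.65) only when summed with its nuclear copy, so its direction depended on the counts used. The value of mt-Rnr2 in cartilage went from -0.033 to 0.52 without control replicate 3. Without 1 library the median log2 fold change was 0.15 to 0.32 at day 0, and that of the difference between the sexes -0.18 to 0.00055.

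Over all genes, 10023 were called at day 0, and 6260 over all 14 cultures; in cartilage 544, 1044 with no filter and 357 with DESeq2; in the interaction 2509, and 1554 with the replicate block; and between the sexes 1, 33 with no filter and 2 in the estimated counts. Deviations of same-numbered replicates correlated at -0.06 to 0.14 at day 0, -0.14 to -0.06 at day 3 and -0.08 to 0.26 in cartilage. Those of different-numbered replicates correlated at -0.13 to 0.19, -0.12 to 0.16 and -0.33 to 0.20. Deviations within such small groups are not independent, so these values cannot decide whether the numbers pair the samples. The replicate block gave 9, 1 and 2 genes called higher at day 0, at day 3 and in cartilage. Over all genes it called 4954 of 15530, 2915 of 13924 and 279 of 8793 higher. Where calls moved, the cause was not tested. In the whole-number cartilage table mt-Atp8, mt-Nd3, mt-Nd4l and 12 transfer RNA genes had too few counts to be tested; these 3 protein-coding genes were tested in the estimated counts of the same libraries.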
